A study of Mus musculus with 6 samples.

Results

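Transcript levels of 10 genes of MHC class II antigen presentation and T cell co-stimulation were followed in mouse retinal cells that had been sorted as CD45+ with intermediate CD11b, which the labels call microglia. The members were taken by symbol from a table of 21851 gene symbols: H2-Aa, H2-Ab1, H2-Eb1, H2-DMa, H2-DMb1, Cd74, Ciita, Cd80, Cd86 and Cd40. All 10 were in the table, and all 10 passed the filter on low counts that left 13477 genes for testing.

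MHC class II molecules carry peptides of internalised proteins to the cell surface, where CD4+ T cells read them. The α and β chains assemble in the endoplasmic reticulum with the invariant chain, which blocks the groove until endosomal proteases degrade it and the DM heterodimer exchanges its last fragment for a peptide. Transcription of the chains, of the invariant chain and of DM depends on the co-activator CIITA, which binds no DNA itself and is recruited by factors on the X and Y boxes of their promoters. Resting microglia hold little class II, and activated microglia and other macrophages raise it, classically after interferon-γ. CD80 and CD86 give the second signal through CD28, and CD40 receives CD40 ligand from helper T cells.

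The libraries were 3 of genotype CD36 CKO (CKO 1 to 3), a conditional knockout of the lipid scavenger receptor gene Cd36, and 3 of genotype CD36 flox (flox 1 to 3), which the protocol text also names wildtype. The labels give neither the Cre driver nor the age of the mice. The protocol has mice receive 20 mg/kg sodium iodate into a vein (a toxicant of the retinal pigment epithelium) or PBS alone, with eyes taken 7 days on, and does not say which library had which. Sample codes show that CKO 2 and CKO 3 carry the same mouse code and the opposite eye, as do flox 2 and flox 3, so the 6 libraries may come from 4 mice and p-values over 3 libraries against 3 may be too small.

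Libraries held 13462737 to 20018962 counts each. Cd36 was counted in all of them, at 28.5 to 122 CPM (each count over its library's TMM-scaled total) in the CKO libraries and 90.5 to 193 CPM in the flox libraries, so the ranges overlapped and the library labelled CKO 1 was the highest of its group. Its log2 fold change was -0.98 (SE 0.51, adjusted p = 0.9996, edgeR, Benjamini-Hochberg). The labels do not give the deleted exons, and counts over the rest of the gene check nothing. Directions below therefore refer to the labels. All 11 microglial markers found in the table were counted in every library. The libraries also stood apart by haemoglobin transcripts across the genotypes: CKO 2, CKO 3 and flox 1 held 0.0837 to 0.339 CPM (haemoglobin-free below), while CKO 1, flox 2 and flox 3 held 1759 to 4243 CPM (haemoglobin-containing). Each class holds 2 mouse codes, so haemoglobin class and mouse cannot be told apart. Cd36 itself was lower in every haemoglobin-free library than in any haemoglobin-containing one, as were 10.8% of all genes tested.

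The promoters are shown first, because CIITA is known to act through their X and Y boxes and covariation with Ciita is followed below. RefSeq windows (GRCm38.p6) of 250 bases before to 50 after a gene start matched 5 of the 10 members: H2-Aa, H2-Eb1, H2-DMa, H2-DMb1 and Cd80. H2-Ab1, Cd74, Ciita, Cd86 and Cd40 had no entry. The 150 bases before the start are printed 5′ to 3′ on the gene's strand, with capitals on matches to CCAAT (Y box core, bound by NF-Y), GNNACNGAT (X box core, bound by RFX) or TGACGTCA (the palindrome of CREB and ATF factors), each searched on both strands. None of the matches overlap another.
H2-Eb1: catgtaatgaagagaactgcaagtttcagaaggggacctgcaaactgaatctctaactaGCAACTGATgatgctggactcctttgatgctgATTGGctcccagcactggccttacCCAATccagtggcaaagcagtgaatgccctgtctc
H2-DMb1: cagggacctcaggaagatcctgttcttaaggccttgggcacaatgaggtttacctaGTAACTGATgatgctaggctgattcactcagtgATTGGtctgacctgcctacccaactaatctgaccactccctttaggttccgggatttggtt
H2-DMb2: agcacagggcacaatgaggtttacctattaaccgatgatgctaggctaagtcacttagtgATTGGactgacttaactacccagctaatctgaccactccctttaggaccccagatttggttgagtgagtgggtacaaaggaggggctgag
H2-Aa: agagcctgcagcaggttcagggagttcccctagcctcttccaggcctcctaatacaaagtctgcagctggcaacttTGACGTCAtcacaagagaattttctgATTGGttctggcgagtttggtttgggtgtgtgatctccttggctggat
H2-DMa: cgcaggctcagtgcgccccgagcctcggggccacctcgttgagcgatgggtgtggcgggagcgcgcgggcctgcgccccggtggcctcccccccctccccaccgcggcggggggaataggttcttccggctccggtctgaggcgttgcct
These stretches are chr17:34305717-34305866 (H2-Eb1, plus strand), chr17:34153041-34153190 (H2-DMb1, plus), chr17:34145099-34145248 (H2-DMb2, plus), chr17:34287824-34287973 (H2-Aa, minus) and chr17:34122682-34122831 (H2-DMa, plus). H2-Eb1 and H2-DMb1 held an X box core followed by a Y box core, with 32 and 33 bases between the first letters. H2-Eb2, a further β chain gene, held the same pair 32 bases apart. H2-Oa held it 97 bases apart, and H2-Ob held the X box core after the gene start, in reverse. H2-Aa held the Y box core 26 bases after TGACGTCA and no GNNACNGAT match, and H2-DMb2, the near copy of H2-DMb1, held the Y box core alone. The H2-DMa window shown held no match to any of the 3. Neither did that of Cd80, and a further H2-DMa window held CCAAT alone. Both H2-DMa windows lie inside the annotated gene, which starts at 34119541, and those of Cd80 and H2-DMb2 also lie inside their genes. Bases before the first annotated start of these 3 genes were not searched, so a missing match says nothing about boxes there. The H2-DMb1 window begins before its annotated gene start at 34153072, but both of its matches lie after that start. Of 32851 mouse windows of 300 bases, 37.4% held CCAAT, 7.82% held GNNACNGAT, 3.18% held both and 1.79% held TGACGTCA. A match is a description of letters, and TGACGTCA was added to the search after the sequences were seen.

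Of the 10 members 0 were called in CKO against flox at an adjusted p under 0.05 (edgeR's quasi-likelihood test, Benjamini-Hochberg over all genes), against a background of 0% of the 13477 genes. At an unadjusted p under 0.05 the edgeR test found 1 member (Cd40, higher in CKO), against 2.81% of all genes, 1.45% higher and 1.37% lower in CKO. With limma-voom and sample weights it was 7 of 10, against 5.48% of all genes. By DESeq2 0 members were called, against 0.119% of all genes. Of the 10 fold changes 9 were positive and 1 was negative, with a median of 0.93 on the log2 scale, beside 0.00 (6814 positive, 6663 negative) over all genes tested. All adjusted p-values of the members were 0.9996.

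**Figure D1:**
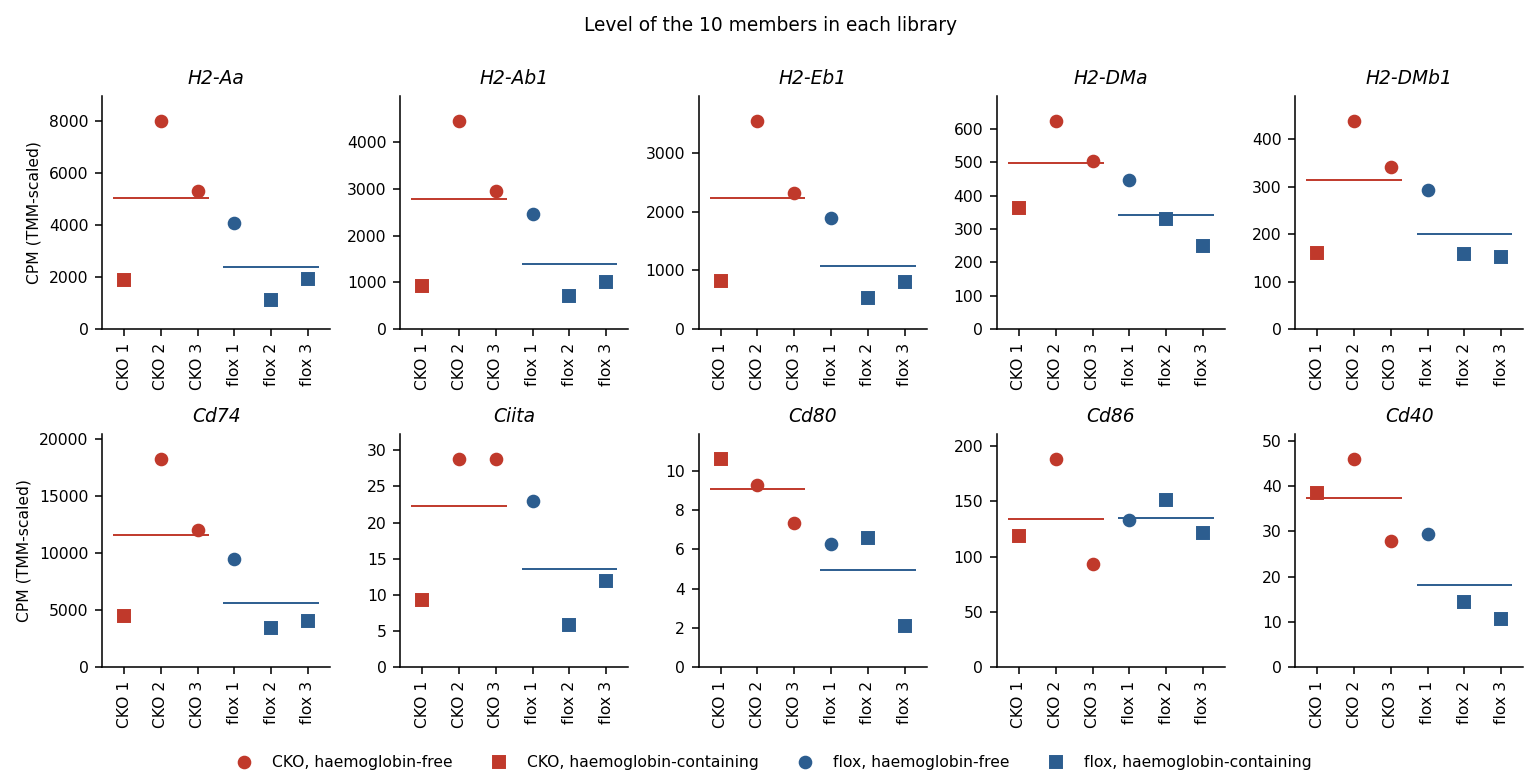
Level of each of the 10 members in each library (TMM-scaled CPM, linear axis from 0), CKO in red left of flox in blue. Circles are haemoglobin-free and squares haemoglobin-containing libraries, and lines are group means (n = 3). Circles lie above squares in the 6 class II presentation genes and Ciita, and not in Cd80, Cd86 and Cd40.

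H2-Aa encodes the α chain of I-A, the classical mouse class II molecule (chromosome 17, 34282744 to 34287823, minus strand, GRCm38). Its level was 1880, 7998 and 5292 CPM in CKO 1 to 3, against 4064, 1117 and 1928 CPM in flox 1 to 3. CKO 2, CKO 3 and flox 1 were high and the other 3 low, so the groups overlapped. CKO over flox came to 1.09 on the log2 scale (SE 0.60, unadjusted p = 0.110 by edgeR).

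H2-Ab1 encodes the β chain that pairs with it (chromosome 17, 34257689 to 34269419). It stood at 913, 4447 and 2951 CPM in CKO 1 to 3, against 2460, 700.2 and 1000.1 CPM in flox 1 to 3. The same 3 libraries were high, and CKO 1 was again among the low ones. CKO over flox came to 0.998 on the log2 scale (SE 0.63).

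H2-Eb1, whose promoter stands first above, encodes the β chain of I-E (chromosome 17, 34305867 to 34316674), the class II molecule that some inbred strains lack because their α chain gene is defective. It had 816, 3545 and 2319 CPM in CKO 1 to 3, against 1900 (flox 1), 531 (flox 2) and 801 CPM (flox 3). The order was again CKO 2, CKO 3 and flox 1 above the rest, with a log2 fold change of 1.05 (SE 0.61).

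Cd74, the invariant chain gene (chromosome 18, 60803848 to 60812652), was the most abundant member. It stood at 4486, 18282 and 12022 CPM in CKO 1 to 3, against 9463, 3448 and 4087 CPM in flox 1 to 3. The same order of libraries held and the groups overlapped, with a log2 fold change of 1.03 (SE 0.56). Together H2-Aa, H2-Ab1, H2-Eb1 and Cd74 took 0.818%, 3.04% and 2.19% of all counts in CKO 1 to 3, against 1.88%, 0.597% and 0.828% in flox 1 to 3.

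H2-DMa and H2-DMb1 encode the chains of DM, the peptide editor. H2-DMa (chromosome 17, 34119541 to 34139101) had 363, 624 and 505 CPM in CKO 1 to 3, against 446, 331 and 249 CPM in flox 1 to 3. H2-DMb1 (chromosome 17, 34153072 to 34160230) had 160, 439 and 342 CPM in CKO 1 to 3, against 294, 158 and 153 CPM in flox 1 to 3. Both kept CKO 2, CKO 3 and flox 1 on top but spanned a smaller range: highest over lowest library was 2.502-fold for H2-DMa and 2.87-fold for H2-DMb1, against 7.16-fold for H2-Aa. Their log2 fold changes were 0.54 (SE 0.27) and 0.64 (SE 0.40). H2-DMa shares 10.4% of its exonic bases with Brd2 on the opposite strand, and reads of H2-DMb1 may be split with H2-DMb2, whose counts are also not whole numbers, so both levels are uncertain. H2-DMb1 and H2-DMb2 summed stood at 199, 580.1 and 413 CPM in CKO 1 to 3, against 378, 182 and 177 CPM in flox 1 to 3.

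Ciita (chromosome 16, 10480059 to 10528418), the co-activator gene, was scarce. It had 9.32, 28.8 and 28.7 CPM in CKO 1 to 3 (152, 344 and 559 counts), against 23.0, 5.86 and 11.9 CPM in flox 1 to 3 (474, 113 and 188 counts). The same 3 libraries were high, the groups overlapped, and CKO over flox came to 0.71 on the log2 scale (SE 0.57, unadjusted p = 0.249 in the edgeR fit). Dexi, a gene on the opposite strand, shares 3.45% of the exonic bases of Ciita. The cell-type-specific promoters of Ciita cannot be separated in counts per gene.

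The co-stimulatory genes followed other orders. Cd40 (chromosome 2, 165055627 to 165072948) had 38.5, 46.1 and 27.9 CPM in CKO 1 to 3, against 29.4, 14.4 and 10.7 CPM in flox 1 to 3. Flox 1 stood above CKO 3, so the groups overlapped by 1 library. CKO over flox came to 1.04 on the log2 scale (SE 0.38), with an unadjusted p of 0.0261 and an adjusted p of 0.9996 from edgeR. Without flox 1 it was 1.58 (unadjusted p = 9.34e-04, adjusted p = 0.349, edgeR with Benjamini-Hochberg adjustment). Without CKO 1, CKO 2, flox 2 or flox 3 the unadjusted edgeR p lay between 0.0588 and 0.0844.

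Cd80 (chromosome 16, 38455561 to 38496335) had 10.6, 9.29 and 7.35 CPM in CKO 1 to 3 (173, 111 and 143 counts), against 6.25, 6.58 and 2.09 CPM in flox 1 to 3 (129, 127 and 33 counts). All 3 CKO libraries stood above all 3 flox libraries. Cd80 was the 1 member whose groups did not overlap, where 3.88% of all genes tested lay without overlap higher in CKO. On the log2 scale the difference was 0.86 (SE 0.46, unadjusted p = 0.0959 by edgeR), with flox 3 far below the other flox libraries. Without flox 3 it was 0.50.

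Cd86 (chromosome 16, 36603869 to 36666081) had 119, 189 and 93.6 CPM in CKO 1 to 3, against 133, 151 and 121 CPM in flox 1 to 3. The flox values lay inside the CKO range, and the log2 fold change of -0.02 (SE 0.26) turned to 0.06, 0.18 and 0.07 without CKO 1, CKO 3 and flox 2.

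Per kilobase of exon, which allows levels of different genes to be compared, Cd74 averaged 6907 ± 4114 CPM per kb in CKO and 3375 ± 1968 in flox (SD, n = 3 each). The chains followed close to each other, with H2-Aa at 1331 ± 807 and 624 ± 401, H2-Eb1 at 1145 ± 703 and 554 ± 373, and H2-Ab1 at 1079 ± 691 and 540.0 ± 367 CPM per kb in CKO and in flox. The SDs of those 3 overlap, while within every library their order was the same. Per kilobase, H2-Aa over H2-Eb1 was 1.15 to 1.18 in CKO and 1.08 to 1.23 in flox, and H2-Eb1 over H2-Ab1 was 1.04 to 1.18 in CKO and 1.002 to 1.06 in flox. Next came H2-DMb1 (186 ± 84.4 in CKO and 120 ± 47.7 in flox) and H2-DMa (144 ± 37.9 and 99.2 ± 28.6), whose spreads also overlapped. Cd86 stood at 36.5 ± 13.4 CPM per kb in CKO and 37.0 ± 4.10 in flox, and Cd40 at 11.01 ± 2.68 and 5.33 ± 2.91. Ciita (2.34 ± 1.18 in CKO and 1.42 ± 0.910 in flox) and Cd80 (2.45 ± 0.442 and 1.34 ± 0.676) were the lowest and lay within each other's spread.

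The design names covariation with Ciita as a further question. Likeness was measured as the root mean square difference, over the 6 libraries, between the log2 CPM of a gene and of Ciita after each gene's mean was subtracted, and is a description with no p, since libraries share mouse codes and fall into 2 classes. A flat profile lies 0.86 from Ciita on this scale, and the median over 13476 other genes was 0.94. H2-Aa lay at 0.25, H2-Eb1 at 0.26, H2-Ab1 at 0.27 and Cd74 at 0.30, at ranks 13, 20, 24 and 32 of 13476. H2-DMb1 (0.39, rank 85) and H2-DMa (0.61, rank 586) were farther. The distance grows with a difference in range as well as in order. Both genes spanned less than Ciita (2.87-fold and 2.502-fold against 4.92-fold). Cd40 lay at 0.76, Cd86 at 0.94 and Cd80 at 1.04, the last pair beyond a flat profile.

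**Figure D2:**
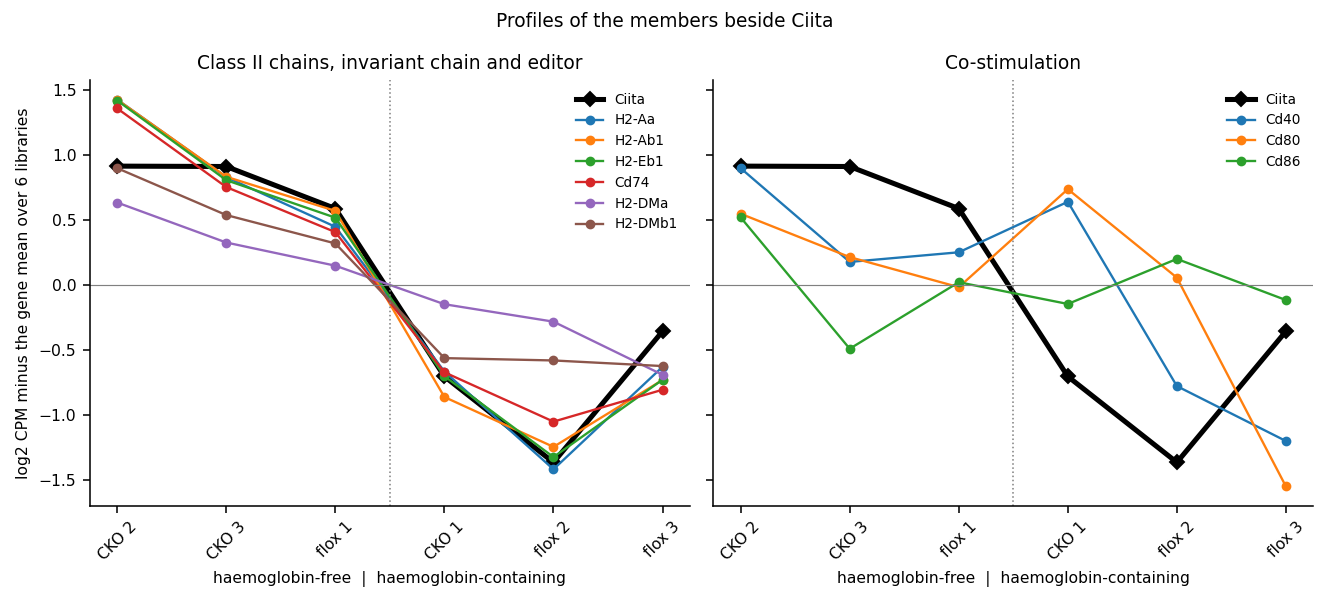
Centred log2 CPM of Ciita (black) with the 6 class II presentation genes (left) and the 3 co-stimulatory genes (right), libraries ordered with the haemoglobin-free ones left of the dotted line. The chains and Cd74 follow Ciita, with distances of 0.25 to 0.30, while Cd40, Cd80 and Cd86 lie 0.76 to 1.04 away.

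Counts per Ciita count spanned 1.71-fold for H2-Aa and 1.85-fold for Cd74, while Ciita itself spanned 4.92-fold. H2-Aa per Ciita was 202, 278 and 184 in CKO 1 to 3, against 177, 191 and 162 in flox 1 to 3. CKO 2 was highest, since H2-Aa was 1.51-fold higher there than in CKO 3 and Ciita 1.002-fold, although both carry the same mouse code. Cd74 per Ciita was 481, 635 and 418 in CKO 1 to 3, against 412, 589 and 344 in flox 1 to 3. By contrast, the ratio of Cd86 to Ciita spanned 7.93-fold and that of Cd80 to Ciita 6.48-fold.

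The 5 genes nearest to Ciita were Gna14, a G protein α subunit gene (distance 0.11), the chemokine receptor gene Cxcr4 (0.16), the integrin β7 gene Itgb7 (0.18), the transcription factor gene Runx2 (0.19) and Proca1 (0.21). Gna14 had 6.74, 20.5 and 22.4 CPM in CKO 1 to 3, against 16.6, 4.56 and 7.33 CPM in flox 1 to 3, and Cxcr4 had 12.9, 39.2 and 51.3 against 38.5, 7.93 and 17.1 CPM. Itgb7 and Runx2 spanned 1.92 to 12.7 and 2.18 to 11.6 CPM, and Proca1 0.0518 to 1.17 CPM. All 5 were highest in the haemoglobin-free libraries, as Ciita was. They were picked for nearness to Ciita over these same libraries, so that order comes with the choice and is no separate result.

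Ratios between the chains varied less than the chains. H2-Aa over H2-Ab1 was 2.06, 1.80 and 1.79 in CKO 1 to 3, against 1.65, 1.60 and 1.93 in flox 1 to 3. H2-Eb1 over H2-Ab1 stayed between 0.786 and 0.894 in CKO and between 0.758 and 0.801 in flox, a 1.18-fold span in genes that spanned over 6.35-fold. Cd74 over H2-Aa was 2.39, 2.29 and 2.27 in CKO 1 to 3, against 2.33, 3.09 and 2.12 in flox 1 to 3, with flox 2, the library lowest in class II, at the top. The editor varied more against the chains: H2-DMa over H2-Aa was 0.193, 0.0780 and 0.0953 in CKO 1 to 3, against 0.110, 0.296 and 0.129 in flox 1 to 3, so its share was largest where the chains were lowest.

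**Figure D3:**
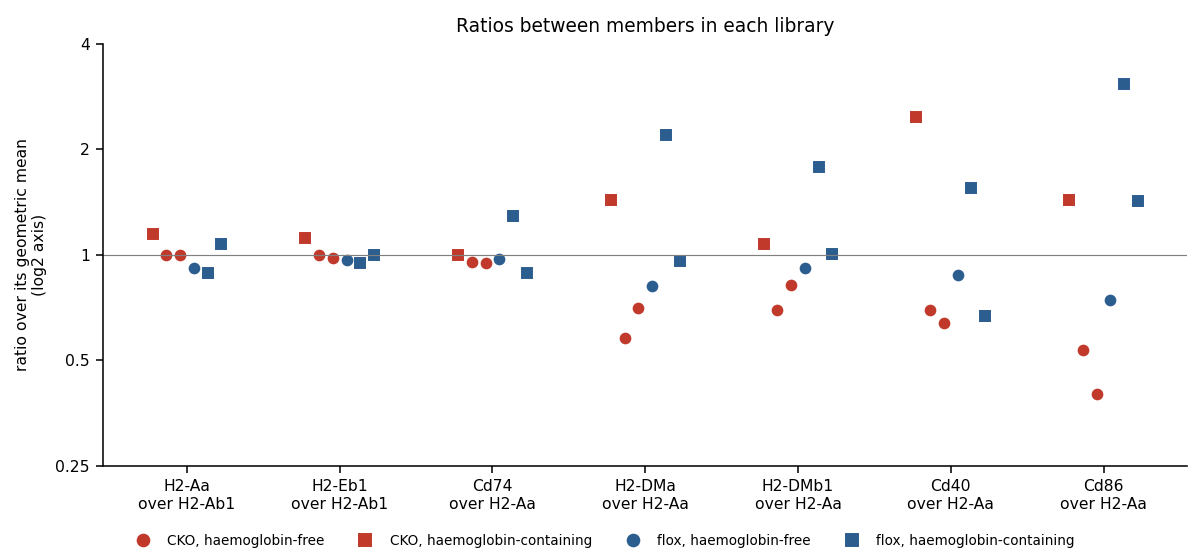
Ratios between members per library, each divided by its geometric mean over the 6 libraries (log2 axis), CKO in red left of flox in blue, with circles for haemoglobin-free and squares for haemoglobin-containing libraries. H2-Aa over H2-Ab1 spans 1.29-fold and H2-Eb1 over H2-Ab1 1.18-fold, and Cd86 over H2-Aa spans 7.65-fold.

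By haemoglobin class 7 of 10 members parted without overlap, against 11.6% of all genes tested higher and 10.8% lower in haemoglobin-free libraries. By label 1 of 10 did, against 8.0% of all genes in either direction. In the class II presentation genes and Ciita, 7 of 7, every haemoglobin-free library stood above every haemoglobin-containing one, where 11.6% of all genes tested did so. Of the 3 co-stimulatory genes 0 did. Mean levels in haemoglobin-free over haemoglobin-containing libraries were 3.52-fold for H2-Aa, 3.77-fold for H2-Ab1, 3.61-fold for H2-Eb1, 3.31-fold for Cd74 and 2.98-fold for Ciita. They were 2.29-fold for H2-DMb1 and 1.67-fold for H2-DMa, and 1.63-fold for Cd40, 1.19-fold for Cd80 and 1.06-fold for Cd86. The classes were set from these libraries, so these folds are a description.

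Within each class the mean of CKO stood above that of flox in the class II genes, by smaller amounts. The haemoglobin-containing class has 1 CKO library, CKO 1, which lay between flox 2 and flox 3 for H2-Aa, H2-Ab1 and Ciita and above both for the other 4 genes. The log2 ratio of CKO over flox for H2-Aa was 0.71 in the haemoglobin-free libraries (CKO 2 and CKO 3 over flox 1) and 0.30 in the haemoglobin-containing ones (CKO 1 over flox 2 and flox 3). For Cd74 these ratios were 0.68 and 0.25, and for Ciita 0.33 and 0.07. With the class as a term in the edgeR fit the median over the members was 0.40, in place of 0.93. H2-Aa stood at 0.51 (SE 0.27) and Ciita at 0.20 (SE 0.30) there. The adjusted p was 0.9991 for each member (edgeR, Benjamini-Hochberg), and 1 of 10 (Cd40) had an unadjusted p under 0.05, against 2.32% of all genes. Cd40 and Cd80 hardly moved, at 0.97 (SE 0.33) and 0.85 (SE 0.47), and their within-class ratios were 0.33 and 0.41 in haemoglobin-free and 1.62 and 1.29 in haemoglobin-containing libraries.

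**Figure D4:**
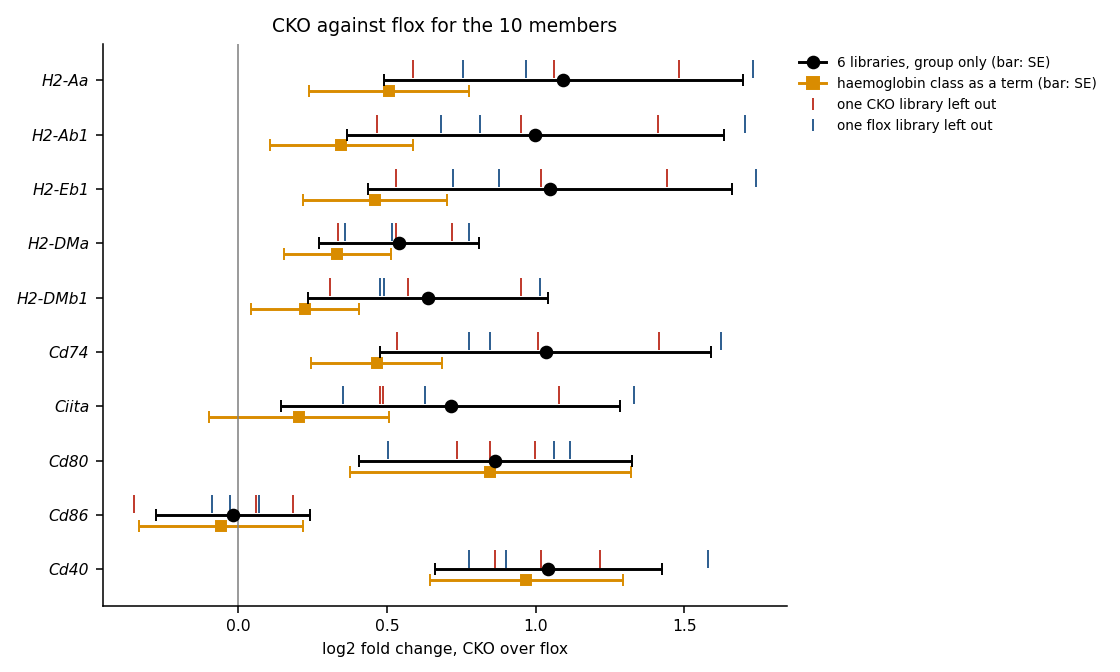
Log2 fold change of CKO over flox for each member, with bars of 1 SE, from the fit on the group alone (black) and with haemoglobin class as a term (orange). Ticks are fits without 1 CKO library (red) or 1 flox library (blue): H2-Aa moves between 0.59 and 1.73, and Cd86 lies on both sides of 0.

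Single libraries decided how large the class II difference was. Without flox 1, the only haemoglobin-free flox library, the median over the members was 1.46 and 8 of 10 members had an unadjusted p under 0.05 (edgeR), against 6.20% of all genes, with adjusted p-values of 0.349 and above. Without the library labelled CKO 1 the median was 1.05 with 6 of 10, against 8.47% of all genes, and without CKO 2 it was 0.50 with 0 of 10, against 3.0%. Without flox 2 or flox 3 the median was 0.70 each time, with 0 of 10, against 1.24% and 1.88% of all genes. With libraries of a shared mouse code summed, 2 against 2, the median was 0.46 with 0 of 10, against 1.21%. Libraries of the same code also differed: H2-Aa was 1.51-fold apart in CKO 2 and CKO 3 and 1.73-fold in flox 2 and flox 3, and Ciita 1.002-fold and 2.03-fold.

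Other class II chains and editors were H2-Oa and H2-Ob, the chains of the DM inhibitor DO, H2-DMb2 and H2-Eb2. All 4 found had positive fold changes (median 0.89) and 0 were called in either direction. H2-Oa had 20.97, 118 and 66.1 CPM in CKO 1 to 3, against 59.3, 24.6 and 28.5 CPM in flox 1 to 3, and shares 22.8% of its exonic bases with an antisense gene. H2-DMb2 had 39.2, 141 and 71.0 against 84.1, 24.0 and 24.5 CPM. H2-Ob had 5.21, 50.4 and 24.7 CPM in CKO 1 to 3, against 24.5, 16.2 and 15.8 CPM in flox 1 to 3. H2-Oa, H2-Ob and H2-DMb2, 3 of these 4, again had every haemoglobin-free library on top, where 11.6% of all genes tested did. H2-Eb2 was scarce, at 55, 72 and 63 counts in CKO 1 to 3, against 22, 18 and 0 counts in flox 1 to 3 (log2 fold change 2.63, SE 1.05, unadjusted p = 0.0357 by edgeR).

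Proteases that degrade the invariant chain, and related loading and turnover genes, were split. Of 11 tested 5 were positive and 6 negative (median -0.01) and 0 were called. Ctss, the cathepsin that trims the invariant chain in myeloid cells, stood at 6545, 16691 and 12284 CPM in CKO 1 to 3, against 9217, 10347 and 7581 CPM in flox 1 to 3. Ctsl had 292, 514 and 369 CPM in CKO 1 to 3, against 312, 705 and 657 CPM in flox 1 to 3, with both groups overlapping. Ifi30, the lysosomal thiol reductase gene, stayed within 560.3 to 761 CPM in CKO and 536 to 614 CPM in flox. Of the 11 genes 0 parted by haemoglobin class, against 11.6% of all genes tested higher and 10.8% lower in haemoglobin-free libraries.

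Genes of the promoter factors were also split, 7 positive and 6 negative of 13, with a median of 0.07 and 0 called. Rfxap, a subunit of the X box complex, had 23.2, 16.6 and 18.6 CPM in CKO 1 to 3, against 10.5, 16.1 and 19.4 CPM in flox 1 to 3. Nfyb, a subunit of the Y box factor, stood at 29.5 to 33.6 CPM in CKO and 34.0 to 37.6 CPM in flox, close but without overlap, where 4.12% of all genes tested lay without overlap lower in CKO. Irf4 had 0.674, 5.69 and 7.15 CPM in CKO 1 to 3, against 2.23, 1.04 and 0.632 CPM in flox 1 to 3. Of the 13 genes 4 had every haemoglobin-free library on top, against 11.6% of all genes tested, and 1 had every one at the bottom, against 10.8%.

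Interferon-γ is the classical inducer of Ciita, and its receptor, signalling and target genes were tested as a list of 18. Of these 7 were positive and 11 negative (median -0.06), and 0 were called. Jak1 and Jak2, the receptor kinases, had log2 fold changes of 0.20 (SE 0.15) and 0.30 (SE 0.26). Iigp1, an interferon-inducible GTPase gene, had 11.3, 12.9 and 5.81 CPM in CKO 1 to 3, against 25.7, 10.3 and 17.8 CPM in flox 1 to 3. Of the 18 genes 8 parted with the haemoglobin-free libraries on top, against 11.6% of all genes tested.

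Among other co-stimulators and checkpoints 8 of 13 tested were positive (median 0.08) and 0 were called. Cd274, which encodes the inhibitory ligand PD-L1, had 10.97, 23.8 and 17.9 CPM in CKO 1 to 3, against 16.3, 6.79 and 11.6 CPM in flox 1 to 3, and ranked 44 of 13476 in likeness to Ciita. Tnfsf9, the 4-1BB ligand gene, had 15.2, 11.9 and 10.95 against 13.7, 5.49 and 4.36 CPM. Tnfrsf14 had 2.27, 4.77 and 3.39 CPM in CKO 1 to 3, against 2.13, 1.40 and 2.09 CPM in flox 1 to 3. Its groups did not overlap, where 3.88% of all genes tested lay without overlap higher in CKO. The adjusted p of each of these was 0.9996 (edgeR, Benjamini-Hochberg).

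Genes of CD40 signalling were positive in 9 of 9 tested (median 0.25), where 6814 of all 13477 genes were, and 0 were called. Within the haemoglobin-containing libraries the log2 ratio of CKO over flox was negative for Traf2 (-0.12), Traf3 (-0.09), Traf5 (-0.13), Nfkb1 (-0.34), Nfkb2 (-0.63) and Rela (-0.24). It was positive there for Traf1, Traf6 and Relb. Of the 9 genes 3 had every haemoglobin-free library on top, against 11.6% of all genes tested. Traf1, an adaptor gene that NF-κB induces, had 5.52, 13.5 and 6.89 CPM in CKO 1 to 3, against 4.26, 2.49 and 1.52 CPM in flox 1 to 3. All CKO libraries stood above all flox libraries, where 3.88% of all genes tested lay without overlap higher in CKO. The difference was 1.64 on the log2 scale (SE 0.53, unadjusted p = 0.0142 by edgeR). Relb, the subunit of the non-canonical NF-κB pathway downstream of CD40, had 10.4, 25.5 and 21.4 against 14.3, 10.3 and 8.599 CPM (log2 fold change 0.78, SE 0.37), and Traf6 had 17.0, 24.1 and 20.7 against 16.7, 15.5 and 16.5 CPM. The gene of CD40 ligand itself, a T cell product, had 4 counts in flox 1 and 0 in the other 5 libraries.

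Some cells other than microglia express class II. Markers of several cell types, not all of which express it, were summed beside it. The 6 class II presentation genes summed to 8619, 35334 and 23430.0 CPM in CKO 1 to 3, against 18626, 6286 and 8218 CPM in flox 1 to 3. Dendritic cell markers, 12 of 13 of them counted in every library, summed to 267, 406 and 370.1 CPM in CKO 1 to 3, against 339, 143 and 141 CPM in flox 1 to 3. They too stood higher in every haemoglobin-free library (339 to 406 CPM) than in any haemoglobin-containing one (141 to 267 CPM). Of the 13 markers 12 had a higher mean in haemoglobin-free libraries. In 8 of 13 every haemoglobin-free library stood above every haemoglobin-containing one, against 11.6% of all genes tested, and in 0 below. Without Itgax, the most abundant, the sums overlapped (191 to 271 CPM in haemoglobin-free and 87.1 to 199 CPM in haemoglobin-containing libraries). Flt3, a defining marker, had 9.63, 24.2 and 19.2 CPM in CKO 1 to 3, against 20.0, 4.66 and 4.299 CPM in flox 1 to 3, and Clec9a was at 0 in flox 3.

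Border-associated macrophage markers, 10 of 11 counted in every library (Cd209f at 0 in 5), summed to 1038, 2249 and 1617 CPM in CKO 1 to 3, against 1189, 894 and 756 CPM in flox 1 to 3, with Ms4a7 the most abundant. T and NK cell markers summed to 59.4, 159 and 169 CPM in CKO 1 to 3, against 168, 70.2 and 114 CPM in flox 1 to 3, and 10 of 12 were counted in every library (Cd3g and Cd8b1 were not). The T and NK cell sum had the haemoglobin-free libraries on top, also without Nkg7, its most abundant marker (92.9 to 107 CPM in haemoglobin-free and 26.9 to 47.0 CPM in haemoglobin-containing libraries). Of its 12 markers 10 had a higher and 2 a lower mean in haemoglobin-free libraries. In 6 of 12 every haemoglobin-free library was on top, against 11.6% of all genes tested. The border-associated macrophage sum parted the same way only with Ms4a7: without it the sum was 621, 557 and 378 CPM in CKO 1 to 3, against 429, 501 and 320 CPM in flox 1 to 3, with CKO 1 on top. Of its 11 markers 3 had a higher and 8 a lower mean in haemoglobin-free libraries. Monocyte markers, 14 of 14 counted in every library, summed to 760 to 1008 CPM in CKO and 747 to 911 CPM in flox and did not part by class. Without Fn1 they did, at 638 to 850 CPM in haemoglobin-free and 261 to 383 CPM in haemoglobin-containing libraries. As single genes the 14 were split, 8 with a higher and 6 with a lower mean in haemoglobin-free libraries. In 2 every haemoglobin-free library was on top and in 1 at the bottom, against 11.6% and 10.8% of all genes tested. The sums without the most abundant marker were chosen after the values were seen. B cell markers summed to 12.998 to 33.5 CPM in CKO and 9.93 to 41.7 CPM in flox, with 2 of 8 counted in every library and Blk and Fcer2a at 3 counts or fewer in every one.

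Rod photoreceptor markers ran the other way, at 7051 to 8157 CPM in haemoglobin-free and 10940 to 19494 CPM in haemoglobin-containing libraries. Microglial markers did not part by class (4401 to 6825 CPM in haemoglobin-free and 4405 to 8816 CPM in haemoglobin-containing libraries). By label, two-sided exact permutation tests of these sums gave p-values of 0.2 for dendritic and border-associated macrophage markers and 0.5 to 1 for the other 6 lists, haemoglobin genes included, where 0.1 is the smallest that 3 against 3 allows. What part these cells had in the class II level was not tested. In libraries of sorted cell pools, fewer cells of a type and less RNA per cell cannot be told apart.

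**Figure D5:**
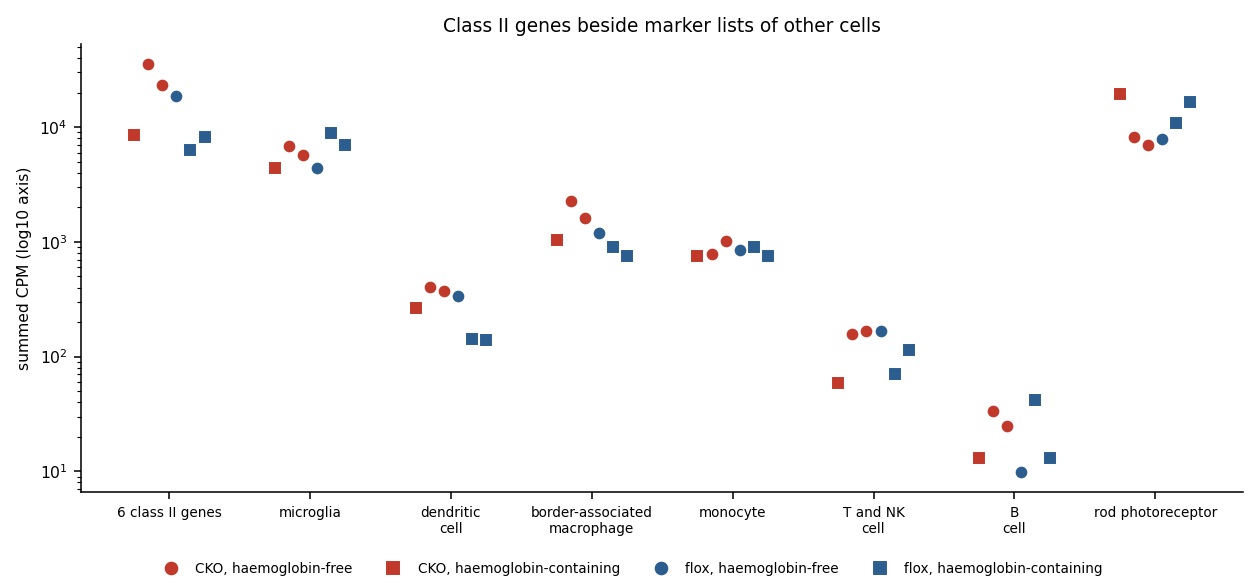
Summed CPM (log10 axis) of the 6 class II presentation genes and of marker lists in each library, CKO in red left of flox in blue, circles haemoglobin-free and squares haemoglobin-containing. Dendritic cell, border-associated macrophage and T and NK cell sums part by class as the class II sum does. The first overlaps without Itgax and the second without Ms4a7. Every haemoglobin-free library is on top in 8 of 13 dendritic, 1 of 11 border-associated macrophage and 6 of 12 T and NK cell markers. Every one is at the bottom in 0, 2 and 0 of them. Over all genes tested the shares are 11.6% on top and 10.8% at the bottom. Rod sums part the other way.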

How the data were processed

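RNA of sorted retinal cells was measured in 6 libraries by Smart-seq2, per the labels' protocols. The authors deposited estimated counts per gene symbol, unscaled, of which 16.6% of values were not whole numbers. The submitters' processing notes name fastp 0.18.0, HISAT2 2.2.4 and the mm10 build. Neither the counter nor its handling of strand is given in the sources used here, so overlapping genes on opposite strands cannot be separated.

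Of 21956 rows, 83 without a symbol were left out (0.0122% to 0.0185% of counts) and 22 repeats were summed. Counts were rounded, filtered (filterByExpr, 13477 genes) and tested with edgeR 4.0.16 (R 4.3.3, TMM scaling, quasi-likelihood fit, robust, with group as its only term, prior count 0.125), with Benjamini-Hochberg adjustment over all genes at 0.05. An SE is the fold change over the square root of F. Distances used log2 CPM with a prior count of 2. Groups came from the titles. DESeq2 1.42.0, limma-voom (limma 3.58.1) and the other alternatives are given in the closing section. The test was tried on simulated counts of independent libraries. These had neither shared mouse codes nor haemoglobin classes, so that trial cannot show how the test behaves on these data. Lengths and positions are from GENCODE M21 (GRCm38, the assembly of mm10), as the union of exons.

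Named genes were all members, the 3 of smallest p per pathway list, the 5 nearest to Ciita, and markers. Values of 2 marker genes are not reported here. Any further gene was picked with its values in view. The members and lists were chosen with earlier results of these data known. Haemoglobin class was set at 100 summed CPM. Nothing says that libraries of a group came from separate mice, so p-values measure only the spread between these libraries. Depth limits Cd80 and Ciita most: 3 counts, the most a count of 0 allows, are 0.145 to 0.251 CPM, covering counting error only.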

Additional observations from a re-analysis of the deposited data

Results flagged for a closer look

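Of 33 genes named by rule, 5 moved one way in CKO against flox in all haemoglobin-free libraries and the other way in all haemoglobin-containing libraries. In none was the difference between the classes tested: each class has 1 library of one genotype, and the only spread within a genotype and class is between libraries of 1 mouse code. None of the 5 is a member. The log2 ratios of CKO over flox, for the haemoglobin-free and then the haemoglobin-containing libraries, were 0.64 and -0.34 for H2-Oa, 0.65 and -0.45 for Ctss, and 0.50 and -1.22 for Ctsl. They were 0.28 and -0.12 for Jak2, and -0.26 and 1.63 for Tnfsf9. Groups of 3 libraries are too small for a check of single outlying libraries.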

How the results depend on the processing

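The count of members called was 0 in all 18 alternatives run. The count of genes called was 0 with edgeR on all 6 libraries (379 at an unadjusted p under 0.05) and in 16 alternatives. It was 16 with DESeq2 (487 at an unadjusted p under 0.05) and 2 with haemoglobin class as a term. The median of the members was positive in all 18 alternatives, at 0.40 to 1.46, and at 0.50 to 1.46 with 1 library left out. With each library left out the count of genes called was 0 to 0. Of 180 member values under alternatives 177 kept their sign and none passed. Those that turned were all of Cd86, at 0.0586 without CKO 1, 0.184 without CKO 3 and 0.069 without flox 2, within -0.3517 to 0.184 with 1 library left out. With library totals and no scaling factor the median of all genes was -0.12 and that of the members 0.79. The median distance of the 6 class II presentation genes from Ciita was 0.21 to 0.31 over the 8 alternatives.

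Title numbers recur in both groups. Same-numbered libraries did not deviate together (correlations of deviations -0.32, 0.01 and -0.33 for numbers 1 to 3). They also lie in opposite haemoglobin classes, so this check cannot show whether the numbers pair libraries. With the replicate block the count of genes called was 0, the count of members called 0 and the median of the members 1.02. Leaving out 1 library gives 3 against 2, and depth limits Cd80, Ciita and H2-Eb2.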

Other observations

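Some values outside the comparisons were chosen after they were seen. Cd70, the gene of the CD27 ligand, had 39, 2 and 53 counts in CKO 1 to 3 and 0 counts in each flox library, and was left untested by the filter on low counts. Ifng had 4, 7 and 0 counts in CKO 1 to 3, against 109, 14 and 8 counts in flox 1 to 3. Cxcl9, a chemokine gene that interferon-γ induces, had 2.21, 8.88 and 6.79 CPM in CKO 1 to 3, against 37.8, 0.155 and 3.22 CPM in flox 1 to 3, so flox 1 stood above all others in both. Cd8a had 1, 68 and 213 counts in CKO 1 to 3, against 145, 10 and 1 counts in flox 1 to 3, and Cd3e had 1, 101 and 170 counts, against 177, 8 and 22 counts. Both are among the 6 of 12 T and NK cell markers that parted by haemoglobin class. Klrb1c and Ncr1 of that list had lower means in haemoglobin-free libraries. Ly6c2, a monocyte gene, had 84.9, 194 and 286 CPM in CKO 1 to 3, against 258, 18.0 and 24.9 CPM in flox 1 to 3, while Fn1, the most abundant gene of the same list, was lowest in the haemoglobin-free libraries (146 to 159 CPM).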
